A study of Homo sapiens with 21 samples.

Results

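RNA levels of 10 cytokines and chemokines that tumor cells can secrete were compared, out of 20111 genes listed for PC-9 cells, an EGFR-mutant non-small cell lung cancer line. The 10 genes were picked by symbol for their function, with earlier results of these data known, so counts of them are no independent test. They are the CXC chemokines IL8 (renamed CXCL8), CXCL1, CXCL2, CXCL3 and CXCL5, the CC chemokine CCL20, the cytokines IL6 and LIF, and the interleukin-1 genes IL1A and IL1B. The CXC chemokines among them carry an ELR motif and attract neutrophils, and CCL20 attracts the lymphocytes and dendritic cells that carry its receptor. IL6 and LIF signal through receptors that share the gp130 chain. IL1A and IL1B encode ligands of the interleukin-1 receptor, which induces many cytokine genes through NF-kB. CXCL1, CXCL2 and CXCL3 are close copies of one another, so reads that they share could have been split between them and their separate values are uncertain.

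Cells had been stained with an EGFR antibody and sorted in 6 rounds for the 5 to 10% with the lowest or the highest EGFR. In the first experiment, parental, EGFR-low and EGFR-high cells were harvested untreated, 24 h after seeding. In the second, EGFR-low and EGFR-high cells received DMSO or 1 µM vorinostat (SAHA), an inhibitor of histone deacetylases, for 72 h. Treatment started 24 h after seeding. Each of the 7 groups had 3 libraries of polyadenylated RNA (Roche Kapa mRNA Hyper Prep), 9 untreated and 12 treated. The genotype labels name an EGFR deletion whose end position counts up from sample to sample although 1 cell line was used, and they were not used for grouping. The study's methods use the term biological replicates for experiments run independently at separate times, and its legend for RNA sequencing of the sorted PC-9 cells gives 3 of these. The labels do not say which libraries of different groups came from the same run or whether each run used a new sort. Values are FPKM, which scale fragments by transcript length and by the size of the library, and the 3 values of a group are given in the order of replicates 1, 2 and 3. In bulk RNA, fewer cells of a type and less RNA per cell cannot be told apart.

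EGFR was read first as a check of the labels. It was 261, 120.1 and 244 FPKM in parental, 60.2, 26.5 and 60.6 in EGFR-low and 269, 161 and 243 in EGFR-high untreated cells. In DMSO it was 43.3, 17.7 and 19.4 FPKM in EGFR-low and 83.3, 152 and 109 in EGFR-high cells, and in vorinostat 19.7, 16.1 and 18.2 and 196, 101 and 207. Every EGFR-low library was below every EGFR-high library of its experiment. As a log2 fold change, EGFR-low minus EGFR-high, this came to -2.23 untreated (limma adjusted p 0.0110), -2.13 in DMSO (0.000569) and -3.09 in vorinostat (4.55e-05). EGFR-low cells were also below parental cells at -2.08 (0.0261), while the value for EGFR-high against parental cells was 0.15 (0.895). Vorinostat minus DMSO was -0.44 in the libraries labelled EGFR-low (limma adjusted p 1.000) and 0.52 in EGFR-high cells (0.940), and became -0.044 without EGFR-low DMSO replicate 1. The untreated call was lost without EGFR-high replicate 1 (-2.08, limma adjusted p 0.0506) or 3 (-2.15, 0.0536), and the call against parental cells without any library but parental replicate 2, with limma adjusted p between 0.0608 and 0.141.

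Some libraries of the DMSO and vorinostat experiment went against their labels in other genes. The genes used to show this were chosen after the values were seen, and none of the 10 cytokines and chemokines is among them. The first set holds 68 genes at 5 FPKM or more in all 6 libraries labelled EGFR-low and at 0.1 FPKM or less in EGFR-high DMSO replicates 1 and 2. None of the 68 reached 1 FPKM in any of the 9 untreated libraries, where the highest value was 0.692 FPKM, untreated EGFR-low cells included. All 68 were at 1 FPKM or more in EGFR-high DMSO replicate 3, at a median of 26.9% of the EGFR-low mean. In EGFR-high vorinostat replicate 1, 14 of the 68 reached 1 FPKM (median 2.51%), and in the other EGFR-high libraries 0 did. The second set holds 45 genes at 5 FPKM or more in all 6 EGFR-high libraries and at 0.1 FPKM or less in EGFR-low DMSO replicates 2 and 3. Between 41 and 45 of these reached 1 FPKM in every untreated library, EGFR-low cells included. In EGFR-low DMSO replicate 1 all 45 did, at a median of 22.1% of the EGFR-high mean, and in the other 5 libraries labelled EGFR-low 0 did.

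The lung lineage gene NKX2-1 and the keratin KRT5 are given as examples. NKX2-1 meets the rule of the first set and KRT5 that of the second, so they restate the split and do not add to it. NKX2-1 was 25.6, 51.1 and 37.9 FPKM in EGFR-low DMSO, 24.1, 48.7 and 43.8 in EGFR-low vorinostat, 0.0859, 0.0397 and 11.1 in EGFR-high DMSO and 0.588, 0.0617 and 0.0674 in EGFR-high vorinostat cells, and at most 0.0690 in any untreated library. KRT5 was 3.44, 0.0536 and 0.0257 FPKM in EGFR-low DMSO cells, and ran from 10.6 to 14.7 in EGFR-high DMSO cells and from 4.72 to 98.5 in untreated libraries. EGFR-low DMSO replicate 1, EGFR-high DMSO replicate 3 and EGFR-high vorinostat replicate 1 thus held genes of both kinds, and the results below are given with and without these 3. All 6 libraries labelled EGFR-low of this experiment differed from the untreated EGFR-low libraries, so its comparisons with EGFR-high cells cannot be given without them and hold for the libraries labelled EGFR-low. The study's text reports that its cell lines were identified by fingerprinting, so as to exclude cross contamination. Whether those 6 libraries are PC-9 cells, and whether the 3 with genes of both kinds are mixtures, was not tested here. The plot of both gene sets beside IL8 shows each library.

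**Figure D1:**
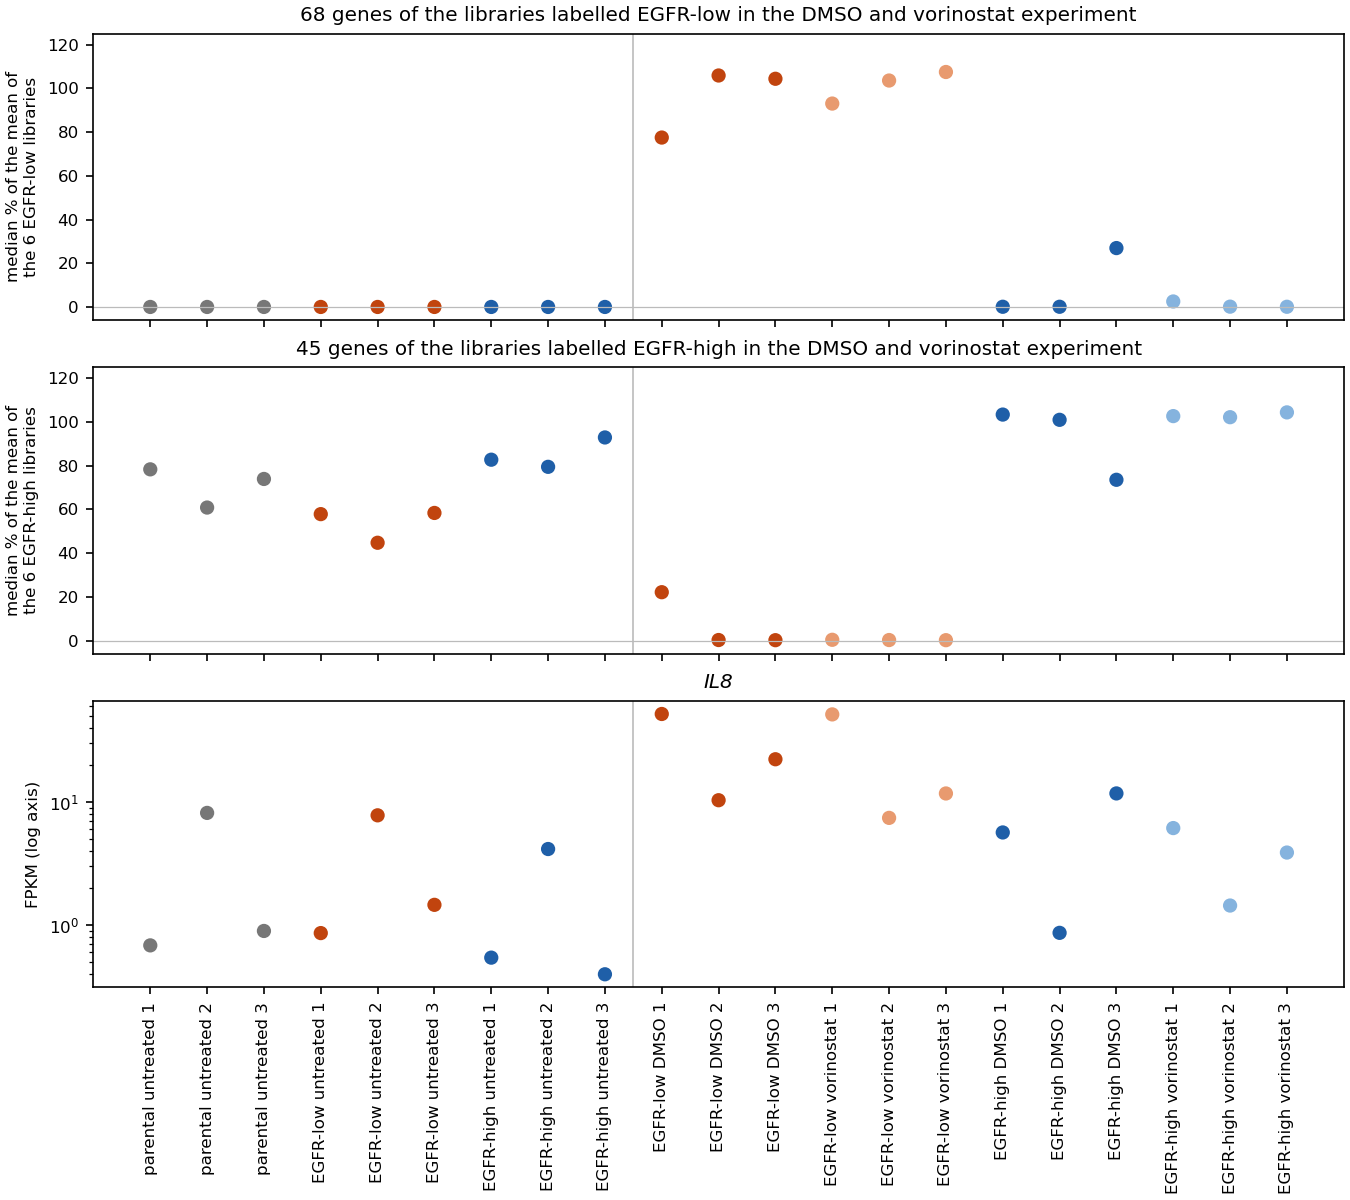
The top and middle panels give, for each of 21 libraries, the median percent of the group mean over 68 genes of the libraries labelled EGFR-low and 45 genes of the EGFR-high libraries, and the bottom panel gives IL8 in FPKM on a log axis. EGFR-high DMSO replicate 3 sits at 26.9% in the top panel and EGFR-low DMSO replicate 1 at 22.1% in the middle panel, and the untreated libraries lie at 0% in the top panel and at 44.8 to 92.9% in the middle panel.

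The sum of epithelial markers was high in every library, and the sums for other cells that make these cytokines were far lower. The 10 epithelial genes summed to 1959 to 4285 FPKM in untreated and 1945 to 4019 FPKM in the other libraries, led by KRT8 and KRT7. The 6 alveolar or club cell genes summed to at most 0.249 FPKM untreated, and to 24.4 to 53.9 FPKM in the libraries labelled EGFR-low of the other experiment, where NKX2-1 led. In EGFR-high cells that sum was 0.244 to 0.965 FPKM, apart from DMSO replicate 3 at 11.8. Leukocyte genes summed to 25.1 to 55.8 and 19.4 to 49.9 FPKM, with CD68 at 17.0 to 39.3 and 14.5 to 36.0 and LAPTM5 at 5.31 to 24.2 and 0.0263 to 3.17. Of the 16 leukocyte genes, 7 (PTPRC, CD3E, CD4, MS4A1, LYZ, FCGR3A and TYROBP) were highest in EGFR-low DMSO replicate 1 and next highest in EGFR-high DMSO replicate 3, which both held genes of both kinds, beside 1.014% of 17158 genes above 0 in 2 or more libraries of this experiment, a pattern looked for after the values were seen. In these 2 libraries LYZ was 7.28 and 2.76 FPKM, against at most 0.538 in the other 10, MS4A1 was 1.18 and 0.329, against 0, and CD3E was 0.937 and 0.290, against at most 0.0184. The highest untreated values were 1.85 FPKM for LYZ, 0 for MS4A1 and 0.0447 for CD3E. Of the 10 members, 1 was highest in EGFR-low DMSO replicate 1, and 0 were highest there and next highest in EGFR-high DMSO replicate 3. Whether leukocyte RNA added to the members' values in these 2 libraries was not tested. Fibroblast genes summed to at most 5.90 and 4.08 FPKM, nearly all COL1A1, with DCN listed at 0 in all 21 libraries. Endothelial genes summed to 2.27 to 8.32 and 2.58 to 8.24 FPKM, led by CDH5.

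Single markers differed between the groups. In the libraries labelled EGFR-low, limma called the leukocyte genes CSF1R (1.03 in DMSO and 1.76 in vorinostat), CD14 (0.82 and 1.54) and CORO1A (0.52 and 0.91) and the endothelial gene KDR (1.91 and 1.90) higher than in EGFR-high cells. It called LAPTM5 (-1.02 and -1.83) and the keratins KRT5 (-2.98 and -4.25), KRT8 (-1.46 and -2.16) and KRT19 (-1.31 and -1.66) lower, and the epithelial gene CDH1 higher (1.06 and 0.91). Counts take only tested genes that reached 1 FPKM in at least 1 library of each label. All 10 epithelial genes did, and 2 were called higher and 4 lower in DMSO and 3 and 4 in vorinostat. Of 5 tested leukocyte genes 3 did, and 1 was called higher and 1 lower in both media. Over all such genes 30% were called higher and 19.4% lower in DMSO and 35.3% and 21.6% in vorinostat. Each gene named here was also called in the same direction without the 3 libraries. CSF1R, CD14 and KDR reached 1 FPKM only in libraries labelled EGFR-low, and without the 3 libraries KRT5 and LAPTM5 only in EGFR-high libraries, so these were tested through the group in which they were high. CSF1R (6.18 FPKM) and CD14 (3.92) were highest in EGFR-low vorinostat replicate 1, where each of the chemokines among the members was the highest of its group. Of the untreated markers, EGFR-low minus EGFR-high, limma called NCAM1 higher (1.03, at 1 FPKM or more in EGFR-low libraries alone) and KRT5 lower (-2.58). Which cells carried these RNAs was not tested.

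The members ranged from near 0 to 51.9 FPKM. Exact zeros can be failed estimates, since MT-ATP8, MT-CO3 and MT-ATP6 were listed at 0 in EGFR-low DMSO replicate 1 and EEF1A1 in EGFR-high vorinostat replicate 2. A member at 0 is therefore only said to be listed at 0. Depth is not given, but steps between low values put the deepest library at 2.09 times the shallowest in the untreated and 2.31 times in the other experiment.

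By group median, LIF had the highest RNA level of the 10 in all 3 untreated groups, at 10.3 FPKM in parental, 10.9 in EGFR-low and 16.2 in EGFR-high cells. FPKM corrects for transcript length, so members can be ranked within a group. IL1A (3.86), IL6 (1.56), IL1B (1.12) and IL8 (0.896) came next in parental cells with ranges that overlapped between neighbours. In EGFR-low untreated cells, IL1B (3.23), IL1A (2.66) and IL8 (1.46) came after LIF, again with overlapping ranges. CXCL1, CXCL2 and CXCL3 had medians of 0.321 FPKM or less in each untreated group, and CXCL5 and CCL20 medians of 0.106 or less. In the libraries labelled EGFR-low of the other experiment IL8 was first, at a median of 22.3 FPKM in DMSO and 11.7 in vorinostat, ahead of LIF at 7.77 and 9.88 with overlapping ranges. LIF was first again in EGFR-high cells, at 21.3 FPKM in DMSO and 19.1 in vorinostat, ahead of IL8 at 5.66 and 3.89 without overlap. IL1A was last of the 10 in EGFR-low DMSO (0.0715) and EGFR-low vorinostat cells (0.129). IL8 was highest in replicate 2 in all 3 untreated groups and in replicate 1 in 3 of the 4 other groups.

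The untreated comparison asks what sorting for low EGFR alone went with. On the log2(FPKM + 1) scale, which understates low genes, the interleukin-1 genes differed most. Every EGFR-low library had more IL1A and IL1B RNA than any EGFR-high library. IL8 was higher in each EGFR-low library than in the EGFR-high library of the same number, but its replicates were far apart. IL6 was lower in each EGFR-low library than in its numbered partner, and LIF overlapped between the groups.

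IL1B was 3.59, 1.90 and 3.23 FPKM in EGFR-low and 0.412, 0.784 and 0.302 in EGFR-high cells, and IL1A was 2.48, 2.66 and 3.97 and 0.765, 1.27 and 0.768. For both genes all 3 EGFR-low libraries were above all 3 EGFR-high libraries. IL1B rose by a log2 fold change of 1.37 (SE 0.24, limma adjusted p 0.00844), and was the only 1 of the 4 tested members called (it reached 1 FPKM in all EGFR-low and parental libraries and in no EGFR-high library), beside 1.62% of all 11305 tested genes called higher and 2.19% called lower. IL1A was 1.05 higher (SE 0.29), a limma adjusted p of 0.0798 that missed the threshold. With replicate numbers as a block, its adjusted p was 0.0340 and 2 members were called, IL1A and IL1B. That block fitted the same replicate effects to parental cells, whose replicate 3 did not pair (correlations of -0.092 with EGFR-low and -0.00229 with EGFR-high cells). In a fit of only the 2 groups compared, IL1A had an adjusted p of 0.0281. The IL1B call was lost without EGFR-low untreated replicate 1, at 1.24 (limma adjusted p 0.0573).

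IL8 was 0.861, 7.79 and 1.46 FPKM in EGFR-low and 0.544, 4.15 and 0.399 in EGFR-high cells, and LIF was 14.2, 10.0 and 10.9 and 10.6, 16.2 and 17.8. The groups overlapped for both, and IL8 was high in both libraries numbered 2. IL8 was higher in 3 of 3 numbered pairs, with a log2 fold change of 0.62 (SE 0.75, limma adjusted p 0.864) that became -0.061 without EGFR-low untreated replicate 2. LIF was -0.31 (SE 0.35, limma adjusted p 0.851).

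The other 6 members fell under the filter and were compared by an exact permutation test, which cannot give a p below 0.1 with 3 libraries against 3. CXCL3 was 0.170, 0.219 and 0.154 FPKM in EGFR-low and 0.0752, 0 and 0.0928 in EGFR-high cells, where 1 library was listed at 0. Its EGFR-low libraries were all above the EGFR-high ones (exact permutation p 0.1, two-sided). IL6 was 0.0505, 0.297 and 0.0475 FPKM in EGFR-low and 0.251, 0.536 and 0.607 in EGFR-high cells, with an overlap between the groups (exact permutation p 0.2). CXCL1 (0.0622, 1.27 and 0.194 FPKM against 0.270, 0.511 and 0.0363) and CXCL2 (0.0920, 0.340 and 0.172 against 0.131, 0.227 and 0.129) overlapped. CXCL5 did not exceed 0.0108 FPKM and CCL20 not 0.124 FPKM in either group, with values listed at 0 in both, so no difference could be read for them at this depth. In all, 3 of 10 members (IL1A, IL1B and CXCL3) were without overlap and higher and 0 lower, beside 9.39% and 11.2% of all tested genes.

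The parental cells show on which side of the unsorted line each sorted group lay. IL6 was lower in both sorted groups than in parental cells. IL1A was lower in EGFR-high than in parental cells and overlapped between EGFR-low and parental cells. IL1B lay below the parental libraries in EGFR-high cells, and above them in EGFR-low cells by a narrow margin (lowest EGFR-low value 1.896 FPKM, highest parental value 1.893). These comparisons use the same parental libraries, and share the sorted libraries with the comparison above, so they are not independent of it or of each other.

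IL6 was 0.863, 1.56 and 2.07 FPKM in parental cells, IL1A was 1.44, 3.88 and 3.86 and IL1B was 1.12, 1.89 and 1.08. No sorted library reached the lowest parental IL6, and the ratio of mean FPKM to parental cells was 0.0879 in EGFR-low and 0.310 in EGFR-high cells (exact permutation p 0.1 each), and 0.0327 in EGFR-low cells without replicate 2. IL1B was 0.71 higher in EGFR-low than in parental cells (SE 0.24, limma adjusted p 0.201) and -0.65 in EGFR-high cells (SE 0.24, 0.507), without overlap in either case. Leaving out all libraries numbered 2, a choice made after seeing the data, gave 1.07 for EGFR-low cells (limma adjusted p 0.0396). IL1A was -1.01 in EGFR-high against parental cells (SE 0.29, limma adjusted p 0.507), without overlap, and 0.044 in EGFR-low cells.

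LIF (10.3, 22.3 and 8.20 FPKM), IL8 (0.684, 8.16 and 0.896) and CXCL1 (0.321, 1.36 and 0.260) in parental cells overlapped both sorted groups. CXCL2 (0.285, 0.183 and 0.264) did too, CXCL3 (0.137, 0.272 and 0.152) lay above the EGFR-high group alone, and CXCL5 (0.0108, 0.0176 and 0.00755) lay above the EGFR-low group alone (exact permutation p 0.1 each). The CXCL5 values came to 2.0, 3.01 and 1.0 steps of 1 fragment in parental and 0, 1.0 and 1.0 in EGFR-low cells. CCL20 was 0, 0.299 and 0.106 FPKM. For EGFR-low against parental cells, limma called 0 of 4 tested members and 1 (IL1B) had an unadjusted p under 0.05, beside 0.831% of all tested genes called higher, 0.77% lower and 14.8% under the unadjusted threshold. Without overlap, 1 of 10 members was higher (IL1B, by the margin above) and 2 were lower (IL6 and CXCL5), beside 9.07% and 8.02%. For EGFR-high against parental cells, limma called 0 of 4 and 2 (IL1A and IL1B) had an unadjusted p under 0.05, beside 0.0619% called higher, 0.00885% lower and 9.67% under the unadjusted threshold. There 4 of 10 members were lower without overlap (CXCL3, IL6, IL1A and IL1B) and 0 higher, beside 6.02% lower and 10.2% higher.

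In DMSO, the libraries labelled EGFR-low and EGFR-high differed in far more genes than the untreated cells did. IL8 was much higher in the libraries labelled EGFR-low, and LIF was lower. CXCL5 and IL6 were higher in every library labelled EGFR-low than in any EGFR-high library, and CXCL1, CXCL2 and CXCL3 overlapped between the groups. Replicate numbers did not pair these libraries, so numbered pairs are not read here. IL1A was lower in the libraries labelled EGFR-low, the opposite of the untreated cells. The comparison holds for those libraries, which carried the 68 genes that stayed under 1 FPKM in untreated cells.

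IL8 was 51.9, 10.3 and 22.3 FPKM in EGFR-low and 5.66, 0.865 and 11.7 in EGFR-high cells, and LIF was 12.8, 6.20 and 7.77 and 22.9, 21.3 and 15.6. IL8 was high in the libraries labelled EGFR-low, but 1 EGFR-high library (replicate 3, at 11.7) lay above the lowest of them (replicate 2, at 10.3), while all LIF values were lower than in EGFR-high cells. IL8 rose by 2.15 on the log2 scale (SE 0.82, limma adjusted p 0.0447). LIF fell, at -1.11 (SE 0.31, limma adjusted p 0.0100). These 2 of 5 tested members were called, 1 higher and 1 lower, beside 31.1% of all 12236 tested genes called higher and 20.7% lower, so a call for a single member was common for any gene here. Without the 3 libraries that held genes of both kinds the same 2 members were called, IL8 at 2.204 (limma adjusted p 0.0472) and LIF at -1.54 (0.000319), beside 35.5% and 23.2% of genes.

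The IL8 call in DMSO was lost in some settings and without any 1 of 4 libraries, and the LIF call did not change under any alternative run. Without EGFR-low DMSO replicate 1, IL8 was 1.59 (limma adjusted p 0.148), and without EGFR-low DMSO replicate 3 it was 2.18 (0.0924). Without EGFR-high DMSO replicate 1 it was 2.30 (0.0760), and without EGFR-high DMSO replicate 2 it was 1.39 (0.189), and none of these passed. Over the other scalings, filters and pseudocounts and the fit of only the compared groups, the limma adjusted p of IL8 lay between 0.0454 and 0.0860. Without all libraries numbered 1, IL8 was 1.74 (0.101) and lost its call, and IL6 was 0.80 (limma adjusted p 0.0335) and gained one. The direction of IL8 was the same in each.

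IL6 was 1.95, 1.79 and 1.32 FPKM in EGFR-low and 1.06, 0.233 and 0.742 in EGFR-high cells, CXCL2 was 4.31, 0.922 and 1.77 and 0.626, 0.153 and 0.979, and CXCL1 was 1.91, 0.559 and 1.22 and 1.47, 0.252 and 0.554. IL6 was higher in the libraries labelled EGFR-low without overlap, and the other 2 overlapped. None passed the limma threshold, with log2 fold changes of 0.70 for IL6 (adjusted p 0.172), 0.98 for CXCL2 (0.159) and 0.35 for CXCL1 (0.414). Without the 3 libraries these were 0.67, 0.75 and 0.079. In a fit of only the 2 groups compared, IL6 had a limma adjusted p of 0.0297.

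CXCL5 was 0.604, 0.366 and 0.636 FPKM in EGFR-low and 0.0390, 0.0217 and 0.116 in EGFR-high cells, and IL1A was 0.159, 0.0679 and 0.0715 and 0.572, 0.908 and 0.201. CXCL5 was higher and IL1A lower in every library labelled EGFR-low, with ratios of mean FPKM of 9.08 and 0.177 (exact permutation p 0.1 each). These ratios were 16.5 and 0.0942 without the 3 libraries, and that of CXCL5 was 17.6 without EGFR-high DMSO replicate 3 alone. EGFR-high DMSO replicates 1 and 2 held 3.34 and 2.01 steps of the smallest CXCL5 value above 0. EGFR-low DMSO replicates 2 and 3 held 1.0 step of IL1A each, so the sizes of these ratios are uncertain. CXCL3 was 1.05, 0.353 and 0.601 FPKM against 0.432, 0.0199 and 0.269, and CCL20 was 1.11, 0.0332 and 0.242 against 0.0969, 0.0596 and 0.124. IL1B was 1.75, 0.395 and 0.249 FPKM against 0.670, 0.251 and 0.830. These 3 overlapped. EGFR-low DMSO replicate 1, which held genes of both kinds and the leukocyte genes given above, was the highest of its group for every member but CXCL5. Without overlap, 2 of 10 members were higher (CXCL5 and IL6) and 2 lower (LIF and IL1A), beside 40.9% and 28.4% of all tested genes. These shares leave out genes under the filter, where 5 of the members lay, and the difference was not tested. Without the 3 libraries that held genes of both kinds, 4 members were higher without overlap (IL8, CXCL2, CXCL5 and IL6) and the same 2 lower, beside 48.2% and 33.2% of genes.

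In vorinostat, all 5 ELR CXC chemokines and CCL20 were higher in every library labelled EGFR-low than in any EGFR-high library. LIF was lower in every one. IL6, IL1A and IL1B overlapped between the groups. The spread within the libraries labelled EGFR-low was wide, with replicate 1 highest for each chemokine. That library also had 22.3% of its FPKM in mitochondrial genes, beside 11.8% and 12.4% in the other 2 of its group, while the EGFR-high vorinostat libraries had 24.2%, 7.27% and 10.3%. No library is shared with the DMSO comparison, but both come from the same experiment and fit.

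IL8 was 51.5, 7.43 and 11.7 FPKM in EGFR-low and 6.14, 1.44 and 3.89 in EGFR-high cells, CXCL2 was 10.5, 0.982 and 1.83 and 0.483, 0.109 and 0.290, and CXCL1 was 3.32, 0.714 and 1.29 and 0.237, 0.234 and 0.547. CXCL5 was 2.26, 0.537 and 0.765 FPKM and 0.0966, 0.00871 and 0.0245, CXCL3 was 2.31, 0.293 and 0.531 and 0.216, 0.0320 and 0.238, and CCL20 was 1.31, 0.0314 and 0.333 and 0, 0.0227 and 0.0256. LIF was 10.9, 7.18 and 9.88 FPKM in EGFR-low and 30.4, 12.7 and 19.1 in EGFR-high cells. All 6 chemokines were high in EGFR-low vorinostat replicate 1 and nearer to the EGFR-high values in the other 2, without overlap, and LIF was lower without overlap.

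CXCL2 rose by 1.64 on the log2 scale (SE 0.55, limma adjusted p 0.0232) and CXCL1 by 0.95 (SE 0.35, 0.0346), each higher in 3 of 3 numbered pairs. LIF fell, at -1.01 (SE 0.31, limma adjusted p 0.0137). IL8 at 2.02 (SE 0.82) narrowly missed the limma threshold at 0.0518, and with replicate numbers as a block its adjusted p was 0.00361. That block fitted the same replicate effects to the DMSO libraries, where EGFR-low and EGFR-high replicate 2 did not pair (correlation -0.207). CXCL2 passed the filter through libraries labelled EGFR-low alone, and CXCL1 through 4 of these and EGFR-high DMSO replicate 1, so both calls are set apart, and without a filter the limma adjusted p was 0.0471 for CXCL2 and 0.0592 for CXCL1. Of the other 3 tested members 0 were called higher and 1 (LIF) lower, beside 36.2% and 22.8% of all tested genes, and 4 of all 5 were called with the block. Without the 3 libraries that held genes of both kinds, limma called IL8 (2.37, adjusted p 0.0236), CXCL2 (1.75, 0.0290) and LIF (-0.71, 0.0138) but not CXCL1 (0.89, 0.0721), beside 35.3% of genes called higher and 26.2% lower. Without overlap, 6 of 10 members were higher and 1 lower, beside 37.3% and 23.5%, and the counts were again 6 and 1 without the 3 libraries, beside 41.4% and 32.5%.

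Each of these calls could be undone by leaving out 1 library. Without EGFR-low vorinostat replicate 1, CXCL1 was 0.57 (limma adjusted p 0.145) and CXCL2 0.88 (0.0700). Without EGFR-high vorinostat replicate 2, they were 0.89 (0.0862) and 1.54 (0.0649). CXCL1 also lost its call without EGFR-low vorinostat replicate 3 (1.03, limma adjusted p 0.0540) and without EGFR-high vorinostat replicate 1 (0.89, 0.0766), and CXCL2 without EGFR-high vorinostat replicate 3 (1.65, 0.0525). LIF lost it without EGFR-low vorinostat replicate 2 (-0.86, limma adjusted p 0.0576) or EGFR-high vorinostat replicate 1 (-0.71, 0.0515). IL8 gained a call without EGFR-low vorinostat replicate 2 (2.55, limma adjusted p 0.0324) or EGFR-high vorinostat replicate 1 (2.37, 0.0464), and in a fit of only the 2 groups compared (0.0387). Another scaling or no filter took the limma adjusted p of CXCL1 to between 0.0514 and 0.0839.

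The ratio of mean FPKM between the libraries labelled EGFR-low and EGFR-high was 27.4 for CXCL5 and 6.43 for CXCL3, both under the filter (exact permutation p 0.1 each). Without EGFR-low vorinostat replicate 1 they were 15.03 and 2.54, and without EGFR-high vorinostat replicate 1, the only 1 of the 3 libraries in this comparison, 71.4 and 7.72. The ratio of 71.4 divides by CXCL5 in EGFR-high vorinostat replicates 2 and 3. These held 1.0 and 2.66 steps of its smallest value above 0, so the size of that ratio is uncertain. With no filter limma called CXCL5 higher, and not CXCL3 or CCL20. No ratio is given for CCL20, which was listed at 0 in EGFR-high vorinostat replicate 1 (exact permutation p 0.1). EGFR-low vorinostat replicate 2 held about the value of 1 fragment of CCL20 (1.06 steps), as did EGFR-high vorinostat replicates 2 and 3 (1.00 and 1.07), so its separation there rested on about 1 fragment. IL6 was 3.06, 0.943 and 1.38 FPKM in EGFR-low and 3.52, 0.245 and 1.00 in EGFR-high cells, at 0.25 on the log2 scale (limma adjusted p 0.627). It turned to -0.061 without EGFR-low vorinostat replicate 1 and to -0.18 without EGFR-high vorinostat replicate 2. IL1A was 0.698, 0.111 and 0.129 FPKM against 1.51, 0.227 and 1.36, and IL1B 0.688, 0.388 and 0.290 against 1.80, 0.336 and 0.396. IL1A was lower in 3 of 3 numbered pairs and IL1B in 2 of 3, with overlap in both (exact permutation p 0.2 and 0.6).

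**Figure D2:**
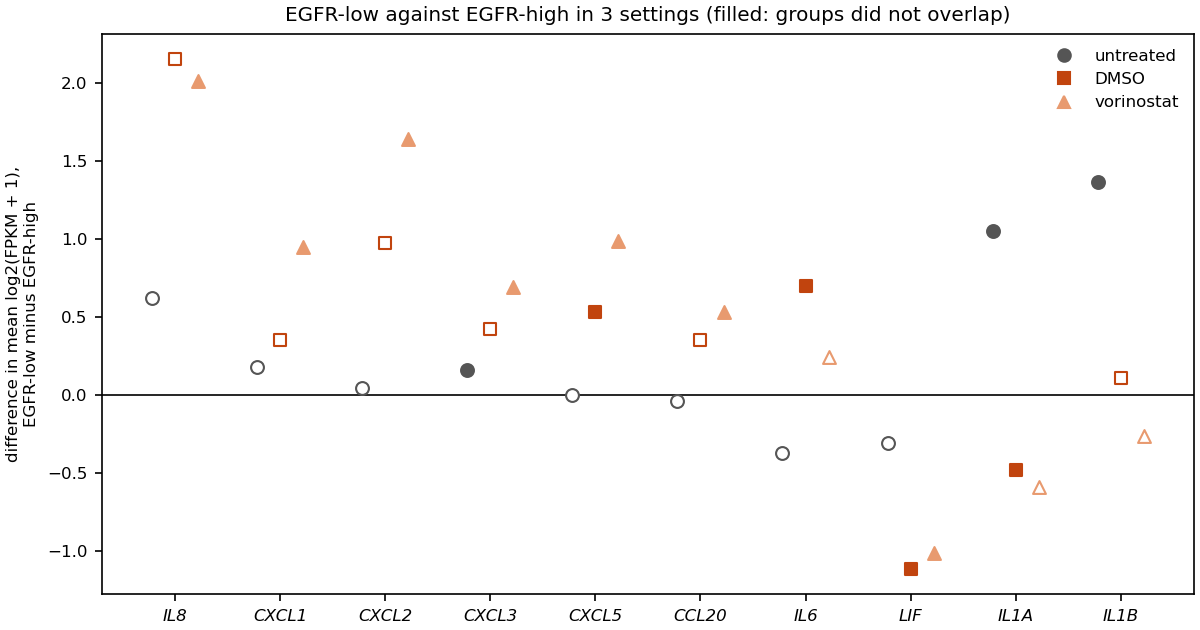
The y axis gives the difference in mean log2(FPKM + 1) between EGFR-low and EGFR-high cells for each member in untreated, DMSO and vorinostat libraries, with filled symbols where the groups did not overlap. IL1A lay at 1.05 untreated and -0.48 in DMSO, and LIF at -1.11 in DMSO and -1.01 in vorinostat.

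The 3 settings can be set side by side for the same genes, which the plot of differences by member does. Means of IL8, CXCL1, CXCL2 and CXCL3 were higher in EGFR-low cells in all 3 settings, and IL8 and CXCL3 were higher in every numbered pair untreated and all 4 in every numbered pair in vorinostat. Without EGFR-low untreated replicate 2 alone, the means of IL8, CXCL1 and CXCL2 were lower in EGFR-low cells. EGFR-high untreated replicate 2, high for IL8 too (4.15 FPKM), stayed in that reading. In replicates 1 and 3, IL8 was 0.861 and 1.46 FPKM in EGFR-low and 0.544 and 0.399 in EGFR-high untreated cells. CXCL2 was 0.0920 and 0.172 against 0.131 and 0.129, and CXCL1 0.0622 and 0.194 against 0.270 and 0.0363. LIF was lower without overlap in DMSO and in vorinostat, and in 2 of 3 numbered pairs untreated. IL1A was higher in 3 of 3 pairs untreated, lower without overlap in DMSO and lower in 3 of 3 pairs in vorinostat. The experiments were fitted separately, and the differences between them were not tested.

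Vorinostat against DMSO asks what 72 h of histone deacetylase inhibition did in each sorted population. In the libraries labelled EGFR-low, CXCL1, CXCL2, CXCL5 and IL1A were higher with vorinostat in each numbered pair, and IL8 was lower in each. In EGFR-high cells, where the numbers did not pair the libraries (correlations of 0.0597, 0.189 and -0.143), CCL20 was lower in every vorinostat library and the other members overlapped. These shifts were small beside the spread between replicates. Both comparisons use the DMSO and vorinostat libraries already compared above.

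No member passed the threshold in either population. In the libraries labelled EGFR-low, limma gave log2 fold changes of -0.44 for IL8 (SE 0.82), 0.25 for CXCL1 (SE 0.35), 0.40 for CXCL2 (SE 0.55), 0.093 for LIF (SE 0.31) and -0.0084 for IL6 (SE 0.41). IL8 turned to 0.13 without EGFR-low DMSO replicate 1 and to 0.10 without EGFR-low vorinostat replicate 2. CXCL2 turned to -0.36 without EGFR-low vorinostat replicate 1, and CXCL1 turned negative without that library too. In EGFR-high cells the values were -0.30 for IL8, -0.34 for CXCL1, -0.27 for CXCL2, 0.45 for IL6 and -0.0073 for LIF, each within 2 SE of 0. IL8 turned positive there without EGFR-high DMSO replicate 3 or without EGFR-high vorinostat replicate 2. IL6 turned to -0.058 without EGFR-high vorinostat replicate 1, and was -0.015 without the 3 libraries that held genes of both kinds.

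Limma called 0 of 5 tested members and 0% of all 12236 tested genes in either direction in both populations, with those 3 libraries and without them. The study's text reports more EGFR protein with vorinostat in the cell lines it tested, and a loss of TGFβ gene signatures. Whether the treatment labels hold was not tested here. At an unadjusted p under 0.05 there were 0 members and 115 genes (0.94%) in the libraries labelled EGFR-low, and 0 members and 409 genes (3.34%) in EGFR-high cells. Without overlap between the groups, 0 of 10 members differed in the libraries labelled EGFR-low, beside 3.78% of genes higher and 5.69% lower. In EGFR-high cells CCL20 alone was lower without overlap, at a ratio of mean FPKM of 0.172 with 1 vorinostat library listed at 0 (exact permutation p 0.1) and 0.308 without the 3 libraries, and 0 members were higher, beside 3.08% lower and 2.25% higher. Without the 3 libraries, 1 member (IL1A) was higher without overlap and 0 lower in the libraries labelled EGFR-low, beside 8.6% and 12.7% of genes, and 0 were higher and 2 (CCL20 and LIF) lower in EGFR-high cells, beside 14.3% and 8.53%. The difference between the vorinostat effects was 0.67 for CXCL2 and -0.46 for IL6 (limma adjusted p 0.999 for each). Without EGFR-low vorinostat replicate 1 that of CXCL2 was -0.10, and without EGFR-high vorinostat replicate 1 that of IL6 was 0.049. Limma called 0 members and 0% of genes for this difference, and 215 genes (1.76%) had an unadjusted p under 0.05. A p that misses the threshold does not show that the values were the same.

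IL8 and LIF were the members tested in both experiments, and the genes whose RNA followed them most closely were ranked over 11117 genes. For IL8 these were NMRK1 (r 0.912 over the 9 untreated libraries and 0.883 over the other 12), MMADHC (0.936 and 0.864) and CKS2 (0.902 and 0.855). For LIF they were IL18BP (0.885 and 0.921), PLK3 (0.878 and 0.942) and CDKN2A (0.863 and 0.878). These r run over groups that differ from one another, so they describe the ranking only.

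Other cytokine genes were read beside the members. The filter lets a gene in through 1 group alone, so the counts and medians of the lists below take only tested genes that reached 1 FPKM in at least 1 library of each label, a choice made after the values were seen. Over all such genes limma called 30% higher and 19.4% lower in DMSO (median log2 fold change 0.12) and 35.3% and 21.6% in vorinostat (0.16), and without the 3 libraries 33.1% and 21.0%, and 32.9% and 24.3%. Of 30 other CXC and CC chemokines, 2 were tested in untreated cells and 5 in the other experiment, and CXCL16 was the most abundant (8.14 to 20.1 and 3.22 to 33.7 FPKM). CXCL16 was lower in the libraries labelled EGFR-low (-2.20 in DMSO and -2.74 in vorinostat). Limma also called CCL28 (2.01 in DMSO and 2.42 in vorinostat), CCL2 (1.55 and 2.21), CCL26 (1.04 and 1.78) and CCL5 higher. CCL2 and CCL5 reached 1 FPKM in no EGFR-high library, and CCL28 and CCL26 in DMSO replicate 3 alone, which held genes of both kinds, so these 4 were tested through the group in which they were high and no count or median of this list is compared. Of 44 other interleukins and growth cytokines, 13 were tested, with MIF the most abundant (20.3 to 169.5 and 73.3 to 287.8 FPKM). Of 11 that reached 1 FPKM in both labels, 2 were higher and 3 lower in DMSO (median -0.012) and 4 and 2 in vorinostat (-0.28), and without the 3 libraries 2 and 4 (0.032) and 2 and 3 (-0.41) of 9. KITLG (1.81 and 1.96), MIF (1.15 and 1.50) and, in vorinostat, IL24 (2.85) were higher, and CTF1 (-1.89 and -1.87) and IL11 (-0.97 and -1.25) lower, CTF1 with 1 FPKM or more in EGFR-high libraries alone and, without the 3 libraries, IL24 in those labelled EGFR-low alone.

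Beside IL8, the study's text names CCL2, CCL5 and IL4 among cytokines that EGFR-low cells secreted more of. Its profiling measured secreted cytokines in culture medium, while the values here are RNA, so the 2 are not like measures. CCL2 and CCL5 are also among the chemokines above. CCL2 was listed at 0 in all 9 untreated libraries, and was 4.01, 1.64 and 2.82 FPKM in EGFR-low and 0, 0.0333 and 0.936 in EGFR-high DMSO cells. CCL5 was 2.32, 0.855 and 1.64 FPKM and 0.0378, 0.0443 and 0.876 there, and both genes were high in the libraries labelled EGFR-low and close to 0 in EGFR-high cells apart from replicate 3, which held genes of both kinds and the leukocyte genes given above. IL4 reached 0.0259 FPKM in EGFR-low DMSO replicate 1 and was listed at 0 elsewhere. Of these 4 genes 3 were tested in this experiment. Limma called 3 higher in DMSO and 2 in vorinostat, beside 31.1% and 36.2% of all tested genes. CCL5 was at 1.00 and 0.86 (limma adjusted p 0.0196 and 0.0332). Without the 3 libraries limma called 3 in both, beside 35.5% and 35.3% of all tested genes called higher. CCL5 was then at 1.09 and 0.85 (limma adjusted p 0.0144 and 0.0274). The CCL2 and CCL5 calls carry the limit given above. IL8 was the only 1 of the 3 to reach 1 FPKM in both labels. With all libraries it was called in DMSO and not in vorinostat.

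Receptors and signalling genes of the members were next. Of 5 receptors of the ELR chemokines and CCL20, 4 were listed. These were too low to test, at most 0.0312 FPKM untreated and 0.0665 in the other experiment. Of 6 interleukin-1 receptor and antagonist genes, IL1RL1 was the most abundant untreated (54.8 to 121.6 FPKM) and fell in the libraries labelled EGFR-low of the other experiment, at -3.27 in DMSO and -3.89 in vorinostat. IL1RAP (1.72 and 1.52) and SIGIRR (1.02 and 1.08) rose, giving 2 higher and 1 lower of 5 tested in DMSO (median 0.38) and 4 and 1 in vorinostat (0.68). IL1RL1 reached 1 FPKM in EGFR-high libraries alone without the 3 libraries, and of the other 4 the counts were 3 and 0 (0.84), and 4 and 0 (0.77). Of 12 IL-6 and LIF receptor and JAK-STAT genes, 11 were tested and 4 were called higher and 2 lower in DMSO (median 0.25), and 6 and 1 in vorinostat (0.44). When the 3 libraries were left out these were 4 and 1 (0.40), and 4 and 2 (0.31), of 10, since IL6R then reached 1 FPKM in libraries labelled EGFR-low alone. LIFR (1.94 and 1.78), IL6R (1.40 and 1.77) and PIAS3 (0.62 and 0.71) were higher and IL6ST, which encodes gp130, lower (-0.88 and -1.60). IL6ST was the most abundant untreated (41.4 to 77.3 FPKM) and PTPN11 in the other experiment (33.7 to 54.7).

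NF-kB genes were called in both directions, beside 30% of all such genes higher and 19.4% lower in DMSO and 35.3% and 21.6% in vorinostat. Of 18 subunits and kinases, 17 were tested, with IRAK1 the most abundant (20.4 to 99.5 and 48.4 to 118.3 FPKM). Limma called 5 higher and 2 lower in DMSO (median -0.044) and 6 and 5 in vorinostat (-0.057), and 7 and 5 (-0.033) and 7 and 6 (-0.061) without the 3 libraries. IRAK4 (1.06 and 1.38), CHUK (0.96 and 1.08) and IKBKB (0.91 and 1.39) were higher and TRAF2 (-0.62 and -0.90) lower. Of 17 NF-kB inhibitors and induced targets, 12 were tested, 2 higher and 6 lower in DMSO (median -0.51) and 3 and 5 in vorinostat (-0.50), and 2 and 6 in both without the 3 libraries (-0.54 and -0.53). NFKBIZ (1.49 and 1.93) and BCL3 (1.097 and 1.50) were higher, and TNFAIP3 (-1.81 and -2.14) and ICAM1 (-1.72 and -2.03) lower. TNFAIP2 was the most abundant of them (29.4 to 146.6 and 189.8 to 372 FPKM).

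Genes that act on the members' RNA or protein were read last, beside the same shares of 30% and 19.4% in DMSO and 35.3% and 21.6% in vorinostat. All 13 genes of AU-rich mRNA decay and stabilisation were tested, with HNRNPD the most abundant (131.8 to 487 and 171 to 336 FPKM). Limma called 1 higher and 3 lower in DMSO (median 0.094) and 4 and 3 in vorinostat (0.048), and 2 and 3 in both without the 3 libraries (0.092 and 0.017). KHSRP (0.73 and 0.77) and, in vorinostat, TIA1 (0.73) were higher, and ZFP36 (-0.90 and -1.30), ZFP36L1 (-0.55 and -0.84) and, in DMSO, AUH (-0.39) lower. Of 10 genes of IL-1 beta processing and release, 7 were tested and 6 reached 1 FPKM in both labels, of which 1 was higher and 3 lower in both media (medians -0.50 and -0.43), and without the 3 libraries 0 and 2 of 4 (-0.56 and -0.52). AIM2 (1.69 and 1.75) was higher, and NLRP1 (-2.35 and -2.59), PYCARD (-1.12 and -1.49) and CAPN1 (-0.76 and -1.01) lower, with PYCARD at 1 FPKM or more in EGFR-high libraries alone, and AIM2 and NLRP1 in 1 label alone without the 3 libraries. CAPN2 was the most abundant (90.0 to 205 and 83.0 to 153.5 FPKM).

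**Figure D3:**
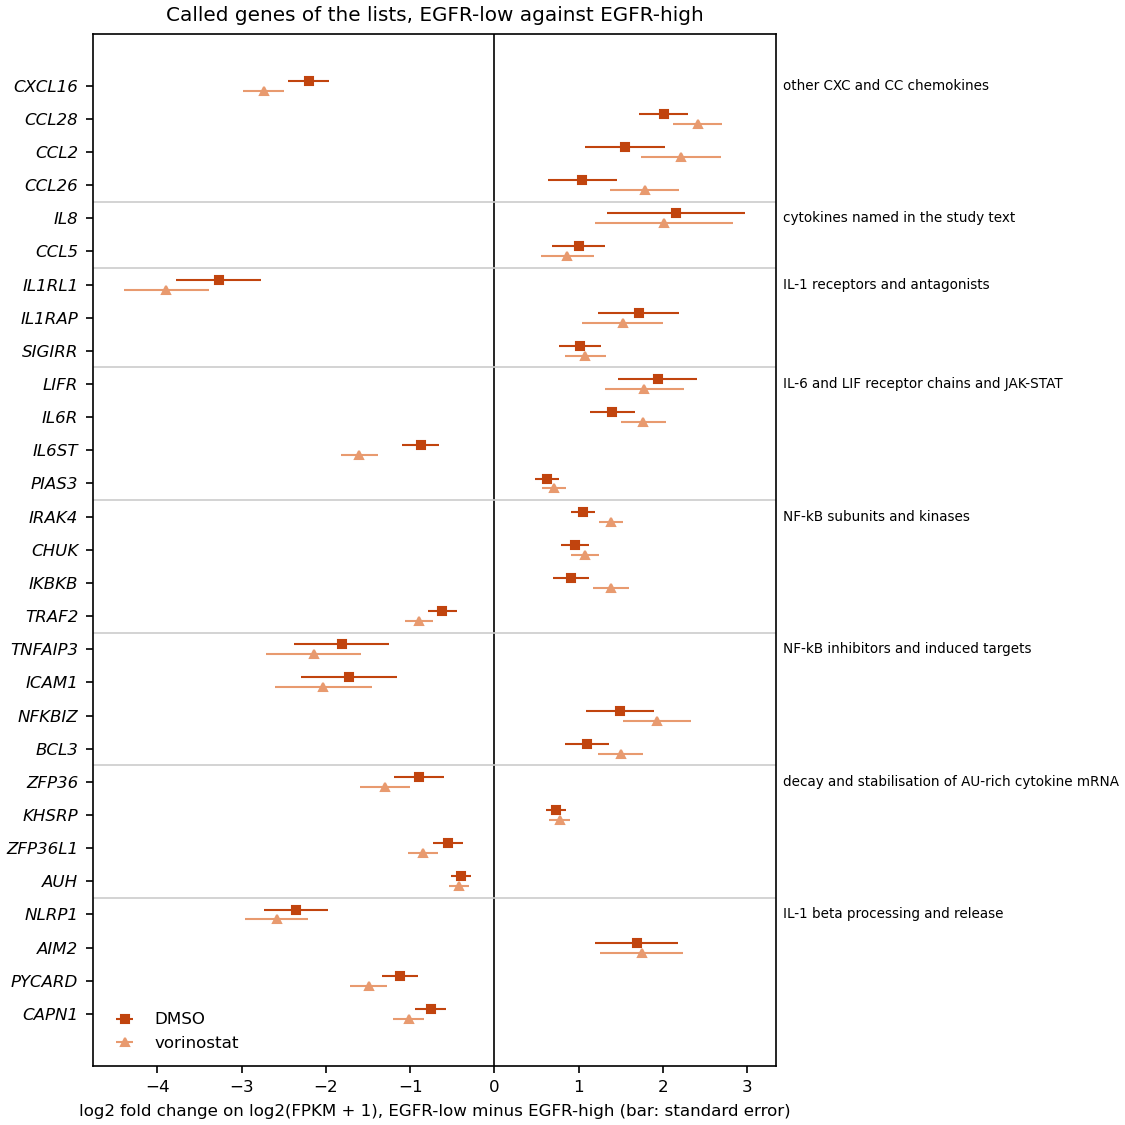
Points give the log2 fold change on log2(FPKM + 1) between the libraries labelled EGFR-low and EGFR-high in DMSO and in vorinostat, with SE bars, for up to 4 genes of each list called in DMSO. CXCL16 lay at -2.20 in DMSO and -2.74 in vorinostat and CCL28 at 2.01 and 2.42.

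In untreated cells the same lists held few calls. Limma called CCL26 (1.35, adjusted p 0.00155), KITLG (1.08, 0.0207) and IL1RN (1.08, 0.0162) higher in untreated EGFR-low cells, and ICAM1 (-1.64, 0.00877) and PYCARD (-1.47, 0.00443) lower. Against parental cells, CCL26 (0.84) and KITLG (1.52) were higher in EGFR-low cells. CCL26 reached 1 FPKM in the 3 untreated EGFR-low libraries alone, so it was tested through the group in which it was high, and PYCARD reached it in no untreated EGFR-low library. List medians over 2 or more genes that reached 1 FPKM in both sorted groups ran from -0.239 for IL-1 beta processing to 0.068 for IL-6 and LIF receptor and JAK-STAT genes, beside -0.027 for all such genes. For vorinostat against DMSO limma called 0 genes of these lists, as it did over all genes.

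Promoter sequence was read because NF-kB sites near the start of the CXC chemokine genes are a shared feature of this family. RefSeq start sites on GRCh38.p14 were found for 9 of the 10 members, all but LIF, and the motifs were matched letter for letter on both strands of the 250 bases before each start. GGAATTTCC was found in all 5 ELR CXC chemokines, its first base 91 bases before the start in IL8, 78 in CXCL1, 77 in CXCL2, 78 in CXCL3 and 90 in CXCL5, and in 145 of 35116 promoters (0.413%). IL6 held GGATTTTCC (first base at 72, in 0.29% of promoters), and CCL20 held GGGTTTTCC as its reverse complement (79, 0.39%). The AP-1 letters TGACTCA were found in IL8 (137) and IL1A and in 4.2% of promoters. IL1B held none of these motifs. The 150 bases before the start are printed with the matches in capitals, in the direction of the gene. The shared site of CXCL2 lies 1 base nearer the start, and aligned at that site CXCL1 and CXCL2 were identical at 129 of 149 bases and CXCL1 and CXCL3 at 129 of 150, while CXCL2 and CXCL3 were identical at 83.9% of 149. A match describes the sequence and says nothing on whether a factor was bound.
IL8, chr4:73740419-73740568, strand +: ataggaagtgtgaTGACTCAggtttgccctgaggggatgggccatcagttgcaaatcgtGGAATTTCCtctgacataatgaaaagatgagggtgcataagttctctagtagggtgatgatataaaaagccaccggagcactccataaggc
CXCL1, chr4:73869243-73869392, strand +: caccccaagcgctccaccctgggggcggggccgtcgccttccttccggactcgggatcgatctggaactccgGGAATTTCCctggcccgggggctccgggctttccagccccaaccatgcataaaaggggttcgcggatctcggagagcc
CXCL2, chr4:74099196-74099345, strand -: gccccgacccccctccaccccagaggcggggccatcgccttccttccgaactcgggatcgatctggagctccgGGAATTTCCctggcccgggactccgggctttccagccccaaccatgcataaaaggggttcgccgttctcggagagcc
CXCL3, chr4:74038690-74038839, strand -: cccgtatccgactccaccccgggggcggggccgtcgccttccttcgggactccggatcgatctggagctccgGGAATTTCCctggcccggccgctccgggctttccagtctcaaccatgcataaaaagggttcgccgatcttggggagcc
CXCL5, chr4:73998678-73998827, strand -: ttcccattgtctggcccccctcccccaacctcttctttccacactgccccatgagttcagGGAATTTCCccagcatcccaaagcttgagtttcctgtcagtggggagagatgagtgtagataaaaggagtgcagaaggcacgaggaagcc
CCL20, chr2:227813692-227813841, strand +: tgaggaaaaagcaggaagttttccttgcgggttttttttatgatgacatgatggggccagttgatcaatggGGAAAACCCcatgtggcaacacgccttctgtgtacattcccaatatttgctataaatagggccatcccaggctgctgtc
IL6, chr7:22727050-22727199, strand +: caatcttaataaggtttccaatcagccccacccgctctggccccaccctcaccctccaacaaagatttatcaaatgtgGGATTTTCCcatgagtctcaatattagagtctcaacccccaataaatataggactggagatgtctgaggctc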

How the data were processed

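Polyadenylated RNA of 21 libraries labelled PC-9 was sequenced, 9 untreated and 12 treated with DMSO or vorinostat. The deposited values were taken as gene-level FPKM made by the authors, although the naming calls them counts, because they are not whole numbers, add to 467897 to 592942 (untreated) and 511011 to 582866 per library, and have low-value steps that differ by gene. The submitters' processing notes name STAR 2.5.1b, Cufflinks 2.2.1, DESeq2 1.10.1 and hg19 without their order. Total depth is unknown, and steps between low values gave relative depths of 1.0 to 2.09 (untreated) and 1.0 to 2.31.

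Tested genes reached 1 FPKM or more in 3 or more libraries of their experiment (11305 untreated, 12236 in the other). After a pseudocount of 1, the log2 values were modelled with limma 3.58.1 (R 4.3.3, with a mean-variance trend), and p-values were Benjamini-Hochberg adjusted over all tested genes at a threshold of 0.05. A fold change on this scale understates the change of low genes. The experiments were fitted separately with 1 mean per group, for 8 comparisons. Members under the filter had an exact permutation test, two-sided, of 3 against 3 libraries, which can give 0.1 at the least. The fit was tested on simulated data. Other calculations used Python 3.11.15.

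Named genes are all 10 members, up to 4 called genes per list with the largest log2 fold change and the most abundant, CCL2, CCL5 and IL4, the 3 genes most like each member tested in both experiments, and EGFR. NKX2-1 and KRT5 were added after their values were seen. The members and the 15 gene lists (10 of genes around the members and 5 of cell-type markers, written from general knowledge) were chosen with earlier results of these data known. From 1 list a gene was taken out after the fit, for a reason other than its values.

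How libraries deviated from the mean of their group was correlated, over genes, between libraries of the same number, at 0.343, 0.73 and 0.689 for untreated EGFR-low and EGFR-high cells, at 0.353, 0.351 and 0.163 for EGFR-low and EGFR-high cells in vorinostat, and at 0.267, 0.302 and 0.329 for vorinostat and DMSO in EGFR-low cells. Every one of these was over 0.1, so in these 3 comparisons the replicate numbers were read as pairs. EGFR-low replicate 1 untreated and EGFR-low replicate 3 in vorinostat correlated better with an EGFR-high library of another number, so pairing is less certain there.

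Alternatives were pseudocounts of 0.1 and 5, no filter, a filter of 5 FPKM, median-of-ratios and quantile scaling, a fit of only the compared groups, a block for the replicate number, no trend, and each library left out in turn. Leaving out all libraries numbered 2 (untreated) or 1 (other experiment), or the 3 libraries that held genes of both kinds, was chosen after seeing the data, as was counting list genes only where both labels reached 1 FPKM and the count of genes highest in 2 of the DMSO libraries.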

Additional observations from a re-analysis of the deposited data

Results flagged for a closer look

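IL1A moved in opposite directions between EGFR-low and EGFR-high cells in the 2 experiments. The difference in mean log2(FPKM + 1) was 1.05 untreated, with every EGFR-low library above every EGFR-high library, and -0.48 in DMSO, with every library labelled EGFR-low below every EGFR-high library. The difference between the experiments was not tested. The libraries labelled EGFR-low in DMSO also carried genes that stayed under 1 FPKM in every untreated library, and EGFR-low DMSO replicate 1 and EGFR-high DMSO replicate 3 held genes of both kinds. Groups of 3 libraries were not tested for single libraries far from the rest.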

How the results depend on the processing

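For untreated EGFR-low against EGFR-high cells, 1 member was called, 0 with a filter of 5 FPKM, where of the members LIF alone was tested, 2 with only the compared groups, 2 with the replicate block, and 0 to 1 with each library left out. Against parental cells, 0 called in EGFR-low cells became 1 without a filter (IL6) and 1 without all libraries numbered 2. In DMSO, 2 became 1 with a pseudocount of 0.1, 1 without a filter, 1 with median-of-ratios and 1 with quantile scaling, and 1 to 2 with each library left out. In vorinostat, 3 became 1 with a filter of 5 FPKM and 1 without all libraries numbered 1, settings in which CXCL1 and CXCL2 were not tested, as in the fit of only the compared groups, and 1 to 3 with each library left out, and the block gave 4. In DMSO the count stayed at 2 without all libraries numbered 1 and with only the compared groups, but as IL6 and LIF in place of IL8 and LIF, and in vorinostat it stayed at 3 without a filter, with CXCL5 in place of CXCL1. The other counts of called members stayed within 1.5 times, and the block changed no other call of a member. In the comparisons where the numbers did not pair every library, as in DMSO (correlations of 0.251, -0.207 and 0.285), the block gave 2 called in DMSO and 0 in the rest, and the pairing there is not known. The block fitted the same replicate effects to every group of an experiment, so its calls in the other comparisons rest on that pairing too. With each library left out, some log2 fold changes turned, and the ranges of a part of these are given. They ran from -0.061 to 1.22 for IL8 untreated between EGFR-low and EGFR-high cells, and from -0.18 to 0.75 for IL6 in vorinostat. The vorinostat effects ran from -1.22 to 0.13 for IL8 and -0.36 to 0.91 for CXCL2 in EGFR-low cells and from -0.058 to 0.87 for IL6 in EGFR-high cells, and the differences between these effects from -0.10 to 1.17 for CXCL2 and -0.88 to 0.049 for IL6. The vorinostat effects of CXCL1 in EGFR-low cells and of IL8 in EGFR-high cells also turned with a library left out. Without the 3 libraries that held genes of both kinds, the vorinostat effects turned for IL8 in EGFR-low cells (0.13) and IL6 in EGFR-high cells (-0.015), and so did the difference for IL6 (0.078).

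Over all genes, 431 calls untreated between EGFR-low and EGFR-high cells became 660 without a filter, 206 with 5 FPKM, 965 with the block and 174 to 286 with a library left out. Against parental cells, 181 in EGFR-low cells became 331, 82, 525 and as few as 33 in the same settings, 106 with only the compared groups, and 833 without the libraries numbered 2. For EGFR-high against parental cells, 8 became 15 without a filter, 3 with 5 FPKM, 2 with only the compared groups and 2 to 4 with a library left out that moved it. Without a filter, 1 gene was called for vorinostat in EGFR-low cells and 1 for the difference between the vorinostat effects, in place of 0. The cause was not tested. Only the compared groups could not be run for the difference between the effects, which needs all 4 groups. List genes were run without the 3 libraries and with the replicate block, but not under the other alternatives. Among the list genes named as called, the block changed 1 call, CCL26 in DMSO (limma adjusted p 0.0498 to 0.0726), so that 3 and not 4 of the other chemokines were called higher. No count over all tested genes of a list moved by more than 1 with the block, except for NF-kB inhibitors and targets against parental cells in EGFR-low cells, from 0 to 3 lower. Members under 1 FPKM rest on few fragments, so small differences between them cannot be read.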
